A study of Mus musculus with 8 samples.

Results

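The Slc25 genes encode the mitochondrial carrier family, and 43 of them are described here in mouse nephron progenitor cells with and without the von Hippel-Lindau gene Vhl. Members are the genes named Slc25a followed by digits whose mean over all libraries (the authors' baseMean) is at least 10, which holds for 43 of the 47 genes so named among 20254 genes in the table. The 2 members nearest to that limit from above are Slc25a18 (14.4) and Slc25a43 (17.9). The 4 genes below it, Slc25a2 (8.78), Slc25a48 (7.8), Slc25a41 (4.79) and Slc25a54 (0.518), are not described further.

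Polyadenylated RNA was sequenced from cells sorted by GFP out of kidneys at embryonic day 17.5. All 8 libraries come from the Six2EGFPcre strain, in which the promoter of Six2, a transcription factor of the nephron progenitor, drives a fusion of GFP and Cre recombinase. In the 4 control libraries the genotype is VHLNP+/-, so that the controls too carry a deleted Vhl allele in these cells, and in the 4 mutant libraries it is VHLNP-/-. The labels do not say whether a library was made from 1 embryo or from pooled kidneys, so p-values measure the spread between these libraries, which may be partly technical.

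Mitochondrial carriers are small proteins of the inner mitochondrial membrane, most of which exchange a metabolite of the matrix for a metabolite of the cytosol. They take ADP and phosphate in for ATP synthesis, move citrate cycle acids and amino acids across the membrane, and supply cofactors such as coenzyme A and NAD to the matrix. Vhl is the recognition subunit of the ubiquitin ligase that marks hypoxia-inducible factors for degradation, and in many tissues these factors shift energy metabolism from mitochondrial respiration towards glycolysis. The comparison of mutant with control libraries asks, for the carriers, how their transcripts differ when Vhl is lost.

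Values are normalised reads, which are reads of a gene divided by the library's size factor. The libraries held 37252683 to 46515762 reads assigned to genes. The 15381 genes that reached 10 normalised reads in 4 or more libraries were tested with limma on the scale log2(normalised reads + 1). Log2 fold changes are mutant minus control, and on this scale they understate the change of genes with few reads. A gene was called at a Benjamini-Hochberg adjusted p under 0.05. All 43 members passed the filter on low values. Vhl, the targeted gene, stood at 1134, 1379, 1208 and 1180 normalised reads in controls 1 to 4 and at 320.2, 284.7, 331.2 and 335.9 in mutants 1 to 4. No mutant came near a control, and the mutant mean was 26.0% of the control mean (limma adjusted p = 4.22e-08). All 8 markers of the nephron progenitor were tested, and their summed level lay between 102976 and 116526 normalised reads in controls and between 100155 and 110629 in mutants. Of these 8, 2 were called lower, beside 3.03% of all genes tested. They were Osr1 (log2 fold change -0.25, limma adjusted p = 0.0404) and Meox1 (-0.40, limma adjusted p = 0.00396). Markers of other cells gave 0 calls, and their summed levels overlapped between the groups. For 6 proximal tubule genes the sum was 1960 to 7813 in controls and 2774 to 8342 in mutants, lowest in control 3 and mutant 2. The sum was 422 to 1270 against 699 to 1098 for 5 endothelial genes, 405 to 807 against 452 to 741 for 5 leukocyte genes, and 22543 to 49080 against 18652 to 38978 for 5 stromal genes. The transcript Xist of the inactive X chromosome was at 8.8 normalised reads in control 2 and 51.9 in mutant 2 and at 60017 to 111673 in the other libraries.

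Most carrier transcripts gave no call. Of the 43 members 2 rose, 1 fell and 40 were not called, so that 6.98% of the members were called, beside 8.43% of all genes tested. The 2 risen members are read against 5.4% of all genes called higher, and the fallen member against 3.03% called lower. The risen genes were Slc25a31, which encodes an ADP/ATP carrier best known from germ cells, and Slc25a36, which encodes a carrier of pyrimidine nucleotides. The fallen gene was Slc25a5, which encodes the ADP/ATP carrier of proliferating cells. The median log2 fold change of the members was -0.06, with a median of -0.01 over all genes tested, and 27 of the 43 (62.8%) had a fitted value below 0, beside 51.5% of all genes. In size, too, the family was near the rest: the median absolute log2 fold change was 0.12 for the members and 0.12 for all genes tested.

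The promoters of the 3 called genes are shown because these are the members that changed. Each stretch is the reference sequence from RefSeq on GRCm38.p6, 5′ to 3′ on the gene's strand. It runs from 250 bases before to 50 after an annotated start, which can differ from the gene's start in GENCODE M21. For Slc25a5 the stretch ends at 36795646, before the GENCODE M21 start of the gene at 36795651. Capitals mark ACGTG and GCGTG, the core forms of the site to which hypoxia-inducible factors bind, on either strand, and CACGTG holds ACGTG on both strands.
Slc25a31, chr3:40708621-40708920, plus strand: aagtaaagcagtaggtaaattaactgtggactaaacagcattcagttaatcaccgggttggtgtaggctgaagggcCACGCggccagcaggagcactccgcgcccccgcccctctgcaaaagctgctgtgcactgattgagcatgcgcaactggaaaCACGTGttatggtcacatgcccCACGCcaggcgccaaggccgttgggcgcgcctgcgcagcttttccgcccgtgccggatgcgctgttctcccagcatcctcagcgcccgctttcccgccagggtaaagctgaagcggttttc
Slc25a36, chr9:97110992-97111291, minus strand: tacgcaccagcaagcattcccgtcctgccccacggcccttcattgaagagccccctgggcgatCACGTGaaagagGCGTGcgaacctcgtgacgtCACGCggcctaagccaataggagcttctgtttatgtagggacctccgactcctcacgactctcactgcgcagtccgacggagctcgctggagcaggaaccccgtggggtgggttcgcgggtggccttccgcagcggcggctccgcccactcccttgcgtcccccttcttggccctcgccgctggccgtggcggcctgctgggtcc
Slc25a5, chrX:36795347-36795646, plus strand: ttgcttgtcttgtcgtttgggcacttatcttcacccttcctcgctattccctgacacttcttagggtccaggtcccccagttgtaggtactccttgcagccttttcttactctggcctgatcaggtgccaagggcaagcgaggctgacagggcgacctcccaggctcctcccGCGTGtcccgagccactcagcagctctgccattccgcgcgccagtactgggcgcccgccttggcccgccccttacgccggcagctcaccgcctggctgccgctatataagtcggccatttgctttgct
The stretches of Slc25a31 and Slc25a36 each hold 1 CACGTG and 2 matches to GCGTG, and that of Slc25a5 holds 1 match to GCGTG and 0 to ACGTG. Such letters are common: of all 32851 promoter stretches of this length, 19.6% hold ACGTG, 32.4% hold GCGTG and 7.15% hold CACGTG. Promoters were found for 34 of the 43 members, as 44 stretches. Of these, 13 (29.5%) hold ACGTG, 25 (56.8%) hold GCGTG and 8 (18.2%) hold CACGTG. These shares are above those of all stretches, and the difference was not tested. A match is a description of the letters and shows no binding.

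The abundance of the carriers spans more than 3 orders of magnitude on a scale divided by transcript length. Per kilobase of the principal transcript in GENCODE M21, Slc25a3, the phosphate carrier, stood at 12185 ± 815 normalised reads in controls (SD, n = 4), Slc25a5 at 10829 ± 918 and Slc25a4, the ADP/ATP carrier of heart and muscle, at 8671 ± 276. The ranges of Slc25a3 (11098 to 12943) and Slc25a5 (9731 to 11685) overlap, and Slc25a4 (8318 to 8929) lay below both. With the union of all annotated exons as length, Slc25a5 ranked the highest and Slc25a3 the third. In each control library these 3 genes for the last steps of ATP synthesis and its export held between 58.0% and 60.2% of the summed level of all 43 members. In mutants they held between 55.8% and 57.6%, so that the groups did not overlap. The 3 genes did not move alike: the mean share of Slc25a5 was 20.2% in controls and 16.8% in mutants, that of Slc25a4 16.2% and 15.7%, and that of Slc25a3 22.7% and 24.2%. The summed level itself was 53580 ± 2454 per kilobase in the controls against 50320 ± 2039 in the mutants (SD, n = 4 each), and these ranges overlap.

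**Figure D1:**
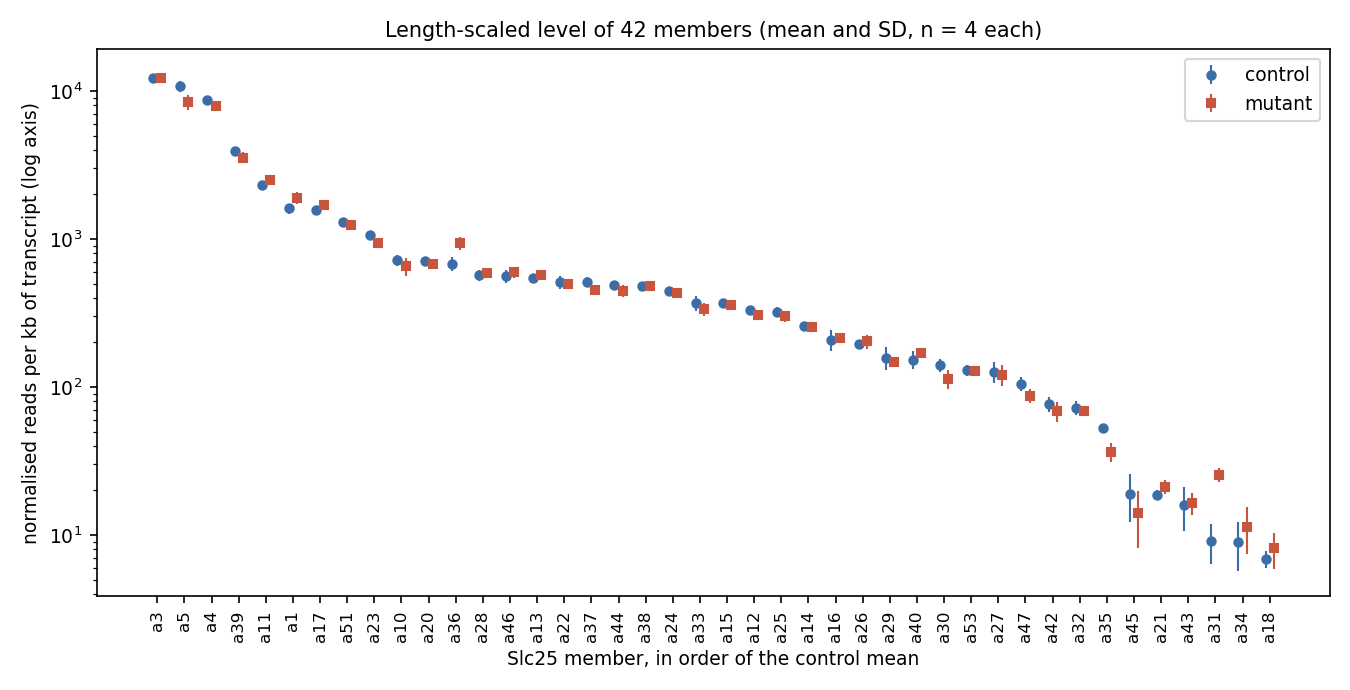
Normalised reads per kilobase of transcript (log axis) for 42 of the Slc25 members, ordered by the control mean, with circles for controls, squares for mutants and bars for the SD over 4 libraries. Slc25a3, Slc25a5 and Slc25a4 stand at the left at 12185 to 8671 in controls, and Slc25a31, at 9.11 in controls and 25.6 in mutants, stands among the lowest.

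After them came the glutathione carrier gene Slc25a39 (3953 ± 253 per kilobase), the oxoglutarate carrier gene Slc25a11 (2330 ± 99.9), the citrate carrier gene Slc25a1 (1610 ± 124) and Slc25a17 of the peroxisome (1565 ± 111; SD, n = 4 controls each). Slc25a1 and Slc25a17 did not differ beyond their spread. The lowest members per kilobase in controls were Slc25a18 (6.88 ± 0.923), a glutamate carrier gene, Slc25a34 (8.94 ± 3.23) and Slc25a31 (9.11 ± 2.7). These 3 did not differ beyond their spread either.

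Within a group the libraries were close. The coefficient of variation over the 4 libraries had a median of 8.01% in controls and 7.78% in mutants. It was as low as 1.27% for Slc25a15 in controls and as high as 41.2% for Slc25a45 in mutants, a gene of few reads. Slc25a45 ran from 24.0 to 64.8 normalised reads in controls and from 15.8 to 50.2 in mutants. It was lowest in control 3 and mutant 2. In these libraries the summed proximal tubule, stromal and leukocyte markers were each the lowest of their group. The endothelial sum was the lowest in control 3 (422) but not in mutant 2 (704, against 699 in mutant 4). The sum of the 4 erythroid markers analysed was the highest of the controls in control 3 (292). In mutant 2 it was 78.8, against 72.2 in mutant 4. The summed nephron progenitor markers were the highest of their group in control 3 and mutant 2 (116526 and 110629). The part of any of these cells in the level of Slc25a45 was not tested. In bulk RNA, fewer cells of a type and less RNA per cell cannot be told apart.

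The ADP/ATP carriers exchange ADP of the cytosol for ATP made in the matrix. Of the 3 members 1 rose, 1 fell and 1 was not called, beside 5.4% of all genes tested called higher and 3.03% called lower. Slc25a31 (ENSMUSG00000069041, chromosome 3, 40708855 to 40726096, mm10) was at 25.2, 20.6, 11.5 and 20.2 normalised reads in controls 1 to 4 and at 46.4, 54.7, 60.4 and 56.2 in mutants 1 to 4. Each mutant library lay above each control library. The gene rose 2.8-fold (log2 fold change 1.49, SE 0.25, limma adjusted p = 0.00346). Exact permutation of the labels, two-sided and over all 70 arrangements, gave p = 0.0286, the smallest that 4 against 4 libraries allow. Leaving out any 1 library kept the call, at an adjusted p of at most 0.0166. It remained a rare transcript, at 0.0469% ± 0.0152 of the summed level per kilobase of the 3 ADP/ATP carriers in the controls against 0.158% ± 0.0279 in the mutants (SD, n = 4 each).

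Slc25a5 (ENSMUSG00000016319, chromosome X, 36795651 to 36798807) was at 12067, 14490, 12923 and 14234 normalised reads in controls 1 to 4 and at 12185, 10161, 9263 and 10390 in mutants 1 to 4. Mutant 1 lay above control 1, so the groups overlapped, while the other 3 mutants lay below every control. The gene fell to 78.0% of the control level (log2 fold change -0.36, SE 0.09, limma adjusted p = 0.0284). The exact permutation p was 0.0571. The call was lost on leaving out any of control 2, control 4, mutant 2, mutant 3 and mutant 4, where the adjusted p reached 0.0911, nor without both control 2 and mutant 2, the libraries with few Xist reads (adjusted p = 0.17). A pseudogene, Slc25a5-ps, is annotated, and with the read counter not stated the level of Slc25a5 is uncertain to the extent that reads match both. The same limit applies to the level of Vhl, for which the pseudogene Vhl-ps1 is annotated.

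Slc25a4 (ENSMUSG00000031633) was at 16012, 17188, 16532 and 17031 normalised reads in controls and at 16313, 14794, 14958 and 14825 in mutants. As for Slc25a5, mutant 1 was the highest of the mutants and overlapped the controls. The log2 fold change of Slc25a4 was -0.13 (95% interval -0.25 to -0.01, limma adjusted p = 0.169). As a description with no test, Slc25a5 held 53.9%, 56.7%, 54.8% and 56.4% of the class's level per kilobase in controls 1 to 4, and 53.6%, 51.5%, 48.9% and 52.0% in mutants 1 to 4. Every mutant lay below every control, although mutant 1 and control 1 nearly met.

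**Figure D2:**
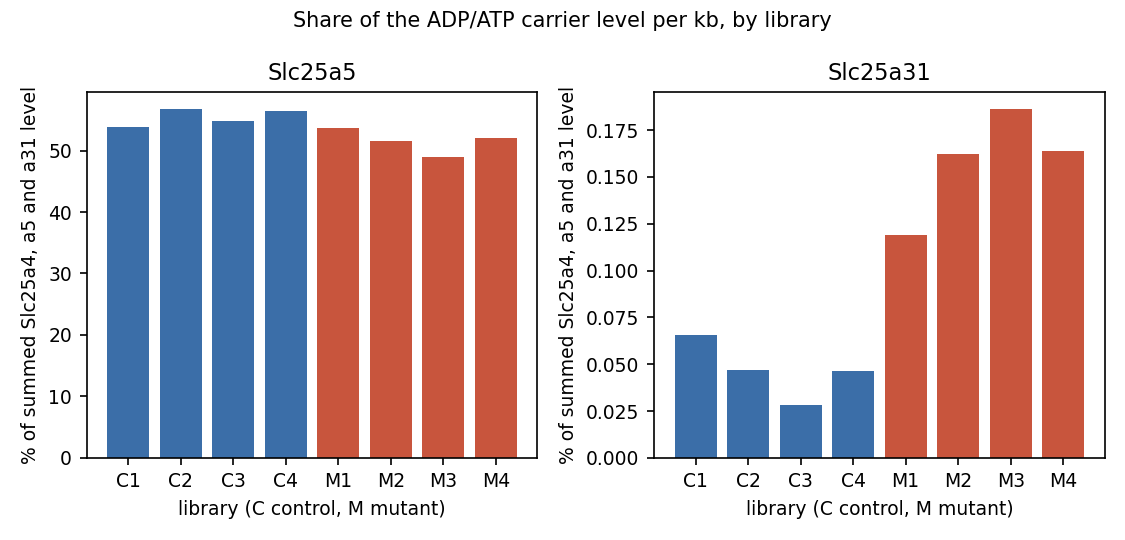
Share of Slc25a5 (left) and Slc25a31 (right) in the summed level per kilobase of Slc25a4, Slc25a5 and Slc25a31, in percent, with 1 bar for each control (C) and mutant (M) library. Slc25a5 ran from 53.9% to 56.7% in controls and from 48.9% to 53.6% in mutants, and Slc25a31 stayed under 0.2% in every library.

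The phosphate and ATP-Mg carriers supply phosphate for ATP synthesis and adjust the adenine nucleotide pool of the matrix, and 0 of 4 members were called. Slc25a3 had 19641 ± 1314 normalised reads in the controls against 19581 ± 930 in the mutants (SD, n = 4 each), with a 95% interval of the log2 fold change from -0.14 to 0.14. Slc25a23, a calcium-dependent ATP-Mg carrier gene, was at 3489, 3700, 3733 and 3473 in controls and at 3297, 3195, 3042 and 3193 in mutants. Each mutant library lay below each control library, and the change was small and without a call (log2 fold change -0.18, 95% interval -0.29 to -0.06, limma adjusted p = 0.0617). The authors' deposited table calls Slc25a23 (adjusted p = 0.00863). Its related genes Slc25a24 and Slc25a25 had log2 fold changes of -0.03 and -0.09, with limma adjusted p = 0.817 and 0.533.

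Counting groups that did not overlap, 2 members had all mutants above all controls, as 8.54% of all genes tested did, and 4 had all mutants below all controls, as 6.72% did. The first are Slc25a31 and Slc25a36. The others are Slc25a23, Slc25a35, Slc25a12 and Slc25a15, of which 0 were called.

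**Figure D3:**
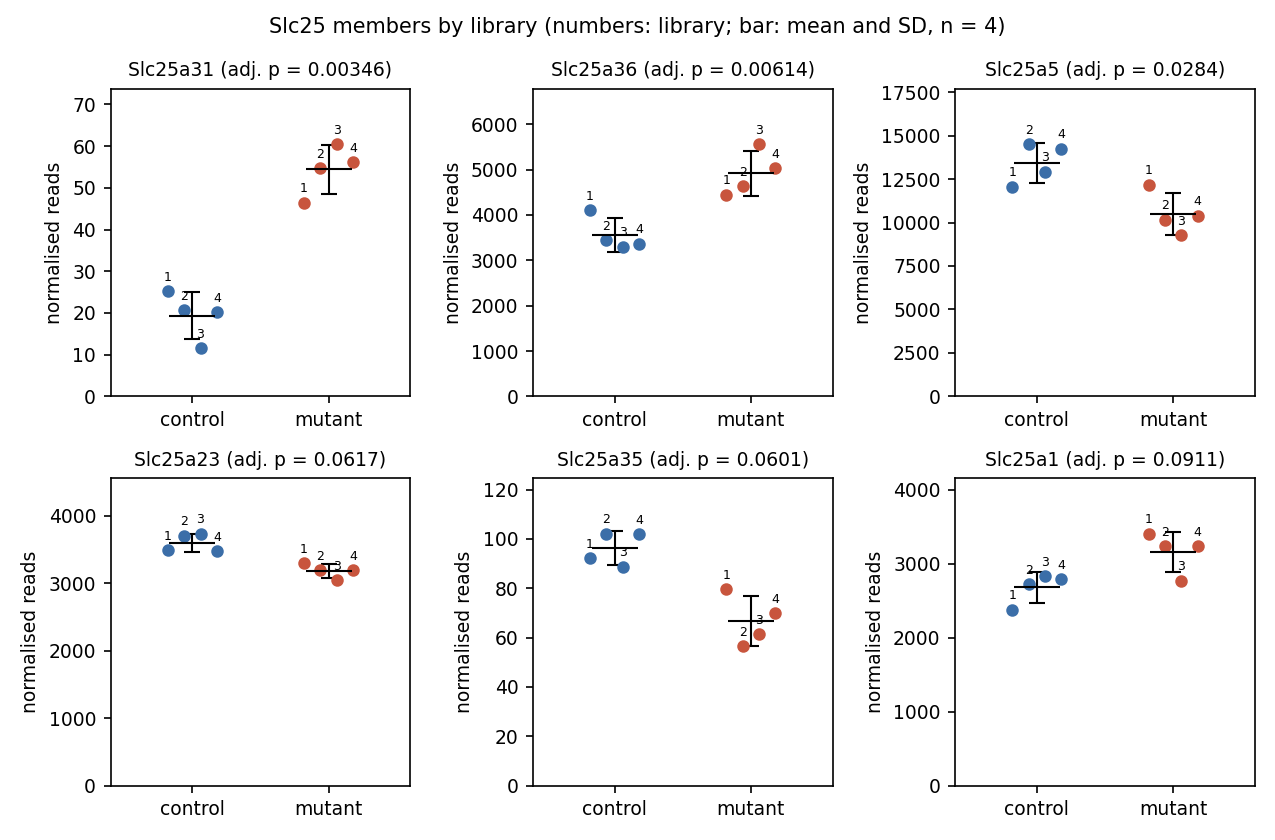
Normalised reads of 6 Slc25 members in each library (numbers mark the library), with the mean and SD of 4 libraries as bars, and each axis starting at 0. Slc25a31 and Slc25a36 are higher in every mutant library than in every control library, while Slc25a5 and Slc25a1 overlap between the groups.

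The carriers of di- and tricarboxylates link the citrate cycle with the cytosol, where citrate feeds fatty acid synthesis and malate carries reducing equivalents, and 0 of 4 members were called. Slc25a1, the citrate carrier gene, was at 2380, 2721, 2834 and 2793 normalised reads in controls 1 to 4 and at 3407, 3236, 2769 and 3236 in mutants 1 to 4. Mutant 3 lay within the controls, and the other mutants lay above them. Its log2 fold change was 0.24 (95% interval 0.07 to 0.41, limma adjusted p = 0.0911). Without mutant 3 it was called (adjusted p = 0.0318), and the authors' deposited table calls it (adjusted p = 0.0401). The malate and oxoglutarate carrier gene Slc25a11 went from 3986 ± 171 to 4268 ± 275, and the dicarboxylate carrier gene Slc25a10 from 1451 ± 125 to 1325 ± 181 (SD, n = 4 each). The limma adjusted p was 0.38 and 0.452. Slc25a21, the oxodicarboxylate carrier gene, had few reads, at 48.8 ± 4.12 and 55.2 ± 6.09 (SD, n = 4 each).

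Slc25a20 encodes the carnitine-acylcarnitine carrier, through which long-chain fatty acids enter the matrix for oxidation. It was at 1220, 1353, 1176 and 1301 normalised reads in controls and at 1188, 1176, 1172 and 1301 in mutants. The values overlapped, and the 95% interval of the log2 fold change ran from -0.20 to 0.08 (limma adjusted p = 0.626).

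Of 8 amino acid carriers 0 were called, and their log2 fold changes lay between -0.14 and 0.20. Slc25a12 and Slc25a13 encode the aspartate-glutamate carriers of the malate-aspartate shuttle. Slc25a12 was at 2088, 2081, 2238 and 2059 normalised reads in controls and at 2042, 2005, 1898 and 1839 in mutants, all below the controls (log2 fold change -0.12, limma adjusted p = 0.224). Slc25a13 was at 1703 ± 110 and 1780 ± 105 (SD, n = 4 each, limma adjusted p = 0.611). The log2 ratio of Slc25a12 to Slc25a13 was 0.32 ± 0.15 in the controls against 0.13 ± 0.07 in the mutants (SD, n = 4 each), with ranges that overlap.

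Slc25a15, which carries ornithine for the urea cycle, was at 1252, 1287, 1281 and 1264 in controls and at 1207, 1235, 1187 and 1250 in mutants. Every mutant lay below every control, at 95.9% of the control level, and the gene was not called (limma adjusted p = 0.533). Slc25a22, a glutamate carrier gene, was at 1439 ± 148 and 1390 ± 51.1, and Slc25a38, a glycine carrier gene needed for haem synthesis, at 856 ± 62.0 and 857 ± 55.3 (SD, n = 4 each). Slc25a44, a carrier gene for branched-chain amino acids, was at 1716 ± 66.4 and 1563 ± 136 (SD, n = 4 each, limma adjusted p = 0.256). Slc25a29, for basic amino acids, and the sparse Slc25a18 had limma adjusted p of 0.737 and 0.733.

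Among 9 carriers of cofactors and other nucleotides 1 rose, 0 fell and 8 were not called, beside 5.4% of all genes tested called higher. Slc25a36 (ENSMUSG00000032449, chromosome 9, 97074961 to 97111157) carries pyrimidine nucleotides, which the matrix needs for mitochondrial DNA and RNA synthesis. It was at 4104, 3445, 3299 and 3371 normalised reads in controls 1 to 4 and at 4446, 4640, 5555 and 5028 in mutants 1 to 4. Every mutant lay above every control, with control 1 the nearest to the mutants. The gene rose 1.38-fold (log2 fold change 0.47, SE 0.09, limma adjusted p = 0.00614, exact permutation p = 0.0286). The call held when any 1 library was left out (adjusted p up to 0.0273).

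The other pyrimidine nucleotide carrier gene, Slc25a33, was not called. It was at 597, 741, 783 and 678 normalised reads in controls and at 658, 704, 603 and 566 in mutants (log2 fold change -0.14, 95% interval -0.36 to 0.08, limma adjusted p = 0.433). The log2 ratio of Slc25a36 to Slc25a33 was 2.34 ± 0.31 in the controls against 2.96 ± 0.25 in the mutants (SD, n = 4 each), and its ranges, 2.07 to 2.78 and 2.72 to 3.20, overlap. A gene on the other strand, Gm13068, overlaps exons of Slc25a33, and the strand setting of the counting is not stated, so the reads of such pairs may not be separated. The same holds for 12 of the 43 members, among them Slc25a23 and Slc25a35. Of these 12, 0 were called, beside 8.43% of all genes tested.

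Slc25a51, which brings NAD into the matrix, was among the more abundant of this class, at 5784 ± 235 and 5494 ± 189 normalised reads (SD, n = 4 each), and its 95% interval of the log2 fold change ran from -0.19 to 0.04. Slc25a17, a peroxisomal carrier gene for coenzyme A and related cofactors, was at 2698 ± 191 and 2933 ± 106 (SD, n = 4 each, limma adjusted p = 0.264). The coenzyme A carrier gene Slc25a42, the S-adenosylmethionine carrier gene Slc25a26, the folate and flavin carrier gene Slc25a32 and Slc25a16 had log2 fold changes of -0.17, 0.05, -0.07 and 0.06, with limma adjusted p of at least 0.482.

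The iron and glutathione carriers gave 0 calls among 4 members. The mitoferrins Slc25a37 and Slc25a28 bring iron into the matrix for haem and iron-sulphur clusters. Slc25a37, the mitoferrin of erythroid cells, was at 2290, 2057, 2246 and 1943 normalised reads in controls and at 1737, 1878, 2013 and 1955 in mutants, with groups that overlap (log2 fold change -0.17, 95% interval -0.32 to -0.02, limma adjusted p = 0.171). Of 10 erythroid markers 4 were analysed here, of which 2 passed the filter and were tested, with 0 calls. The listed beta-globin genes are not among the 4. The summed level of the 4 was 112 to 292 in controls and 72.2 to 174 in mutants. Among them Hba-a1 was at 0 in 7 of 8 libraries, and the part of such cells in the level of Slc25a37 was not tested. Slc25a28 was at 870 ± 69.7 and 899 ± 66.4 (SD, n = 4 each, limma adjusted p = 0.777).

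Slc25a39 and Slc25a40 are linked to the import of glutathione, the main thiol antioxidant of the matrix. Slc25a39 was at 6024, 6904, 6871 and 6846 normalised reads in controls and at 6416, 6229, 5286 and 5977 in mutants (log2 fold change -0.16, limma adjusted p = 0.219). Control 1 lay within the mutants, and the other controls lay above them. The much rarer Slc25a40 was at 427 ± 60.5 and 470 ± 36.8 (SD, n = 4 each, limma adjusted p = 0.477).

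The members related to uncoupling proteins gave 0 calls of 3. Slc25a30 was at 514, 557, 431 and 515 normalised reads in controls 1 to 4 and at 495, 366, 369 and 402 in mutants 1 to 4. Mutant 1 lay within the controls and the other mutants below them, and the log2 fold change was -0.31 (95% interval -0.56 to -0.05, limma adjusted p = 0.137). Without mutant 1 the gene was called (adjusted p = 0.0374). Slc25a14 was at 455 ± 9.12 and 446 ± 29.5, and Slc25a27 at 369 ± 61.8 and 351 ± 57.8 (SD, n = 4 each).

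Of 7 members with no assigned substrate, or with another role, 0 were called. Slc25a35 was at 92.2, 102.1, 88.7 and 101.8 normalised reads in controls and at 79.6, 56.6, 61.4 and 69.9 in mutants. Every mutant lay below every control, with 69.4% of the control level (log2 fold change -0.53, 95% interval -0.87 to -0.19, limma adjusted p = 0.0601). It was called in 4 of 19 alternatives and not in the other 15. These were without mutant 1 (limma adjusted p = 0.0397), total-read scaling (0.0476), limma voom (0.0446) and the fit without variance trend and robust moderation (0.0294). Slc25a46, which acts in the outer membrane on mitochondrial shape, was at 2441 ± 252 and 2598 ± 199 (SD, n = 4 each, limma adjusted p = 0.551). Slc25a47 was at 166 ± 17.9 and 138 ± 14.0 (SD, n = 4 each, limma adjusted p = 0.234). Slc25a53, Slc25a43, Slc25a34 and Slc25a45 had limma adjusted p of 0.979, 0.906, 0.551 and 0.523.

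**Figure D4:**
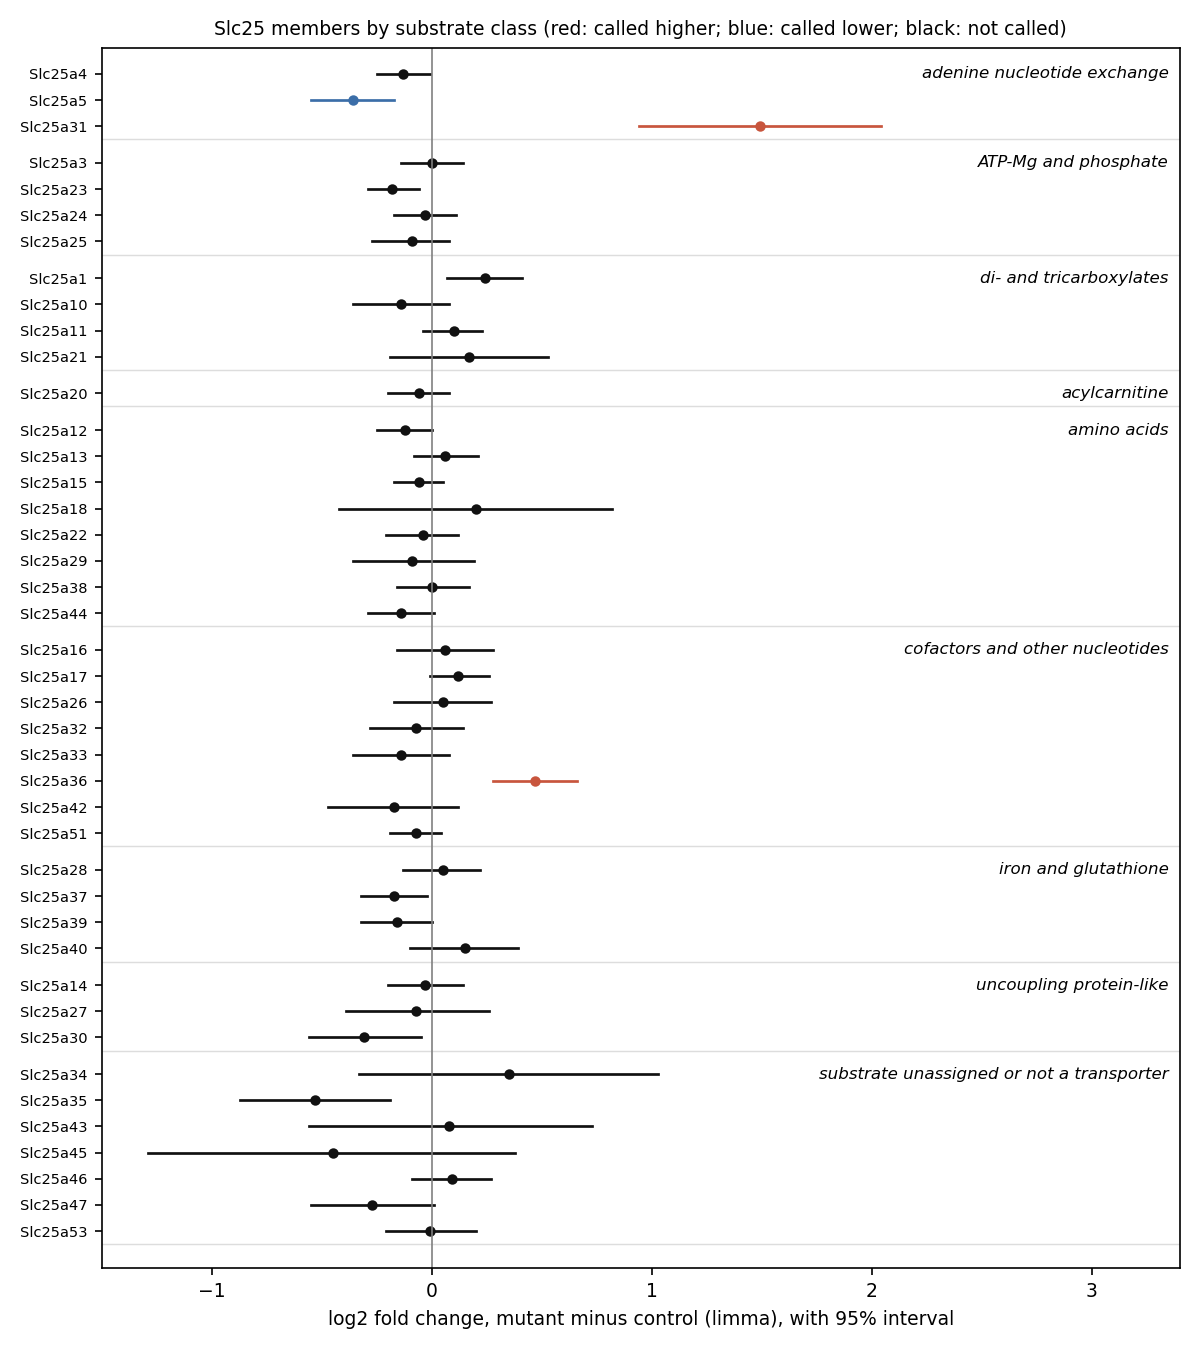
Log2 fold change, mutant minus control, of 42 of the Slc25 members with its 95% interval from limma, grouped by substrate class, in red where called higher, in blue where called lower and in black where not called. Slc25a31 stands apart at 1.49, and most other members lie near 0 with short intervals.

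For 32 of the 40 members without a call the 95% interval of the log2 fold change lay within -0.5 to 0.5. The other 8 were Slc25a18, Slc25a21, Slc25a30, Slc25a34, Slc25a35, Slc25a43, Slc25a45 and Slc25a47, most of them with few reads. For these a change beyond 0.5 in size is not excluded in at least 1 direction. Of the 4 members on the X chromosome, 0 rose, 1 fell (Slc25a5) and 3 were not called. Beside this, 5.4% of all genes tested were called higher and 3.03% lower. Without control 2 and mutant 2, the libraries with few Xist reads, Slc25a5 was not called (limma adjusted p = 0.17).

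Related genes were read from 3 lists. Of the family members that carry other symbols, Ucp1 and Ucp3 were too low to test, and Ucp2, Mtch1 and Mtch2 gave 0 calls. Ucp2, which exports matrix acids of the citrate cycle, was at 6041 ± 538 and 5759 ± 424 normalised reads (SD, n = 4 each, limma adjusted p = 0.656). Mtch2 had the smallest adjusted p of these (0.241). Of 17 other transporters and channels of mitochondrial membranes 0 were called. Among them the calcium uniporter gene Mcu was at 652 ± 28.4 and 547 ± 48.3 (SD, n = 4 each, log2 fold change -0.25, limma adjusted p = 0.0762). Of the 17, 3 (Mcu, Sfxn2 and Abcb10) had all mutants below all controls, as 6.72% of all genes tested did. All mutants lay above all controls for 0 of the 17, beside 8.54% of all genes.

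Carriers reach the inner membrane through the TOM pore, the small TIM chaperones and the TIM22 complex. Of 15 tested genes of this route 1 rose, 1 fell and 13 were not called, so that 13.3% were called, beside 8.43% of all genes tested. Tomm6, a small subunit of the pore, was at 1535, 1685, 1716 and 1660 normalised reads in controls and at 1940, 2099, 1876 and 2028 in mutants (log2 fold change 0.27, SE 0.06, limma adjusted p = 0.0168). Agk, a lipid kinase that is also a subunit of TIM22, was at 1458, 1470, 1609 and 1615 in controls and at 1341, 1269, 1329 and 1299 in mutants (log2 fold change -0.23, SE 0.06, limma adjusted p = 0.0319). Neither overlapped between the groups. Of all genes tested, 8.54% had all mutants above all controls and 6.72% had all mutants below. Tomm6 lost its call on leaving out control 4, mutant 2 or mutant 4 (largest adjusted p 0.0641). Agk lost it on leaving out control 3, control 4 or any of mutants 2 to 4 (largest adjusted p 0.107). The median log2 fold change was -0.04 over this list, -0.06 over the 17 transporters and -0.11 over the 3 tested family members with other symbols.

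In the authors' deposited table, 5 of the 43 members are called, beside 12.5% of the 15144 genes with an adjusted p there. They are the 3 called here and Slc25a1 and Slc25a23, each with the same direction as in limma.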

How the data were processed

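Polyadenylated RNA of 4 control and 4 mutant libraries was made into strand-marked libraries, according to the labels' protocols. The submitters' processing notes name mm10, STAR 2.5.3a and DESeq2 1.18.1. Read counter, annotation and strand setting are not stated there. The deposited signal per library is reads per gene divided by size factors, per the file headers, and its values show that the authors' table was divided again by the size factors recycled down the genes and rounded. Whole reads that rebuild the deposited mean within a relative tolerance of 1e-09 were recovered for 20254 of 20254 genes. Dividing them once gave the normalised reads. The authors' deposited log2 fold changes and p-values served as an alternative, and their deposited score was not used.

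All 8 libraries entered 1 limma 3.58.1 fit (R 4.3.3) without covariates on log2(value + 1), with variance trend and robust moderation and two-sided Benjamini-Hochberg adjusted p-values over 15381 genes. The fit was tested on simulated data. Gene positions and lengths are from GENCODE M21 (GRCm38, the same assembly as mm10), matched by Ensembl ID for 19435 of 20254 genes. Libraries held 37252683 to 46515762 reads. Members, substrate classes, lists and tests were chosen with earlier results of these data known. Values in each library are given for called members, members without overlap between groups and the member with the smallest adjusted p of each class, with some further members chosen after their values were seen. The paralog ratios and the sums per kilobase were also chosen after the values were seen. Alternatives covered the pseudocount, the filter, scaling, the test, the deposited values, the replicate block and left-out libraries. The values of 1 member are not reported here, although it enters the counts.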

Additional observations from a re-analysis of the deposited data

Results flagged for a closer look

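In 7 of 88 groups of 4 libraries (43 members and Vhl, in controls and in mutants) 1 library stood apart by Dixon's test, which sets its gap to the nearest of the others against the group's range. Chance alone flags about 1 in 20 groups. Slc25a4 was at 16313 normalised reads in mutant 1 and at 14794 to 14958 in the other mutants. In control 1, Slc25a10 was at 1264 (others 1499 to 1528), Slc25a39 at 6024 (6846 to 6904) and Slc25a26 at 415.4 (357.9 to 364.1). In control 3, Slc25a12 was at 2238 (2059 to 2088) and Slc25a44 at 1815 (1672 to 1695). Slc25a20 was at 1301 in mutant 4 and at 1172 to 1188 in the other mutants.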

How the results depend on the processing

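Slc25a31 and Slc25a36 were called higher, and Vhl lower, under each of the 19 alternatives. Their adjusted p reached 0.0268, 0.0362 and 8.14e-06. The number of called members, 3, was 5 with total-read scaling, with limma voom and in the authors' deposited table, each time from 4 substrate classes in place of 2. Slc25a23 joined the calls in these 3 settings and with upper-quartile scaling. The number called lower, 1, was 3 with total-read scaling and voom and 2 with upper-quartile scaling and in the authors' table. It was 0 on the deposited values themselves and when control 2 with mutant 2, or control 3 with mutant 2, were left out. Slc25a5 had an adjusted p of 0.0755 without variance trend and robust moderation, when Slc25a35 was called in its place. The number of called related genes, 2, was 4 in the authors' table and 0 on the deposited values themselves and without either pair of libraries. Leaving out each library in turn gave 2 to 5 called members from 2 to 4 classes, 0 to 3 called lower and 0 to 4 related genes. With the replicate number as a block (replicate block), 2 members were called, 0 of them lower, with 0 related genes, and all genes called numbered 766 in place of 1297. Same-numbered libraries deviated from their group means with correlations of 0.21, -0.14, -0.14 and 0.06. These values show no pairing by number, but with so few libraries they cannot exclude one. For libraries of different numbers the correlations ran from -0.47 (control 3 with mutant 1) to 0.57 (control 3 with mutant 2, a pair left out above). Among all genes 698 were called on the deposited values themselves, 816 without control 4, 774 without mutant 4, 662 when control 2 with mutant 2 were left out, and 764 for control 3 with mutant 2. More were called with total-read scaling (1593), with voom (1545), in the authors' table (1888), without control 1 (1565) and without mutant 1 (1323). The cause of these differences was not tested. Depth limits the members with fewest reads, Slc25a18, Slc25a43, Slc25a31 and Slc25a34, at 10.3 to 60.4 normalised reads in each library.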
